A study of Homo sapiens with 6 samples.

Results

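The small MAF proteins MAFF, MAFG and MAFK, their partners of the Cap'n'collar (CNC) and BACH families, NFE2L1 (NRF1), NFE2L2 (NRF2) and BACH1, and the NRF2 inhibitor KEAP1 were followed through irradiation of MDA-MB-231 cells. Members were the rows of the deposited gene table that carry one of these names, 7 of 58735 genes, and all 7 passed the minimum mean of 1 FPKM that 12128 genes reached. FPKM are fragments per kilobase of gene, scaled to sequencing depth. The length of each member was the union of its annotated exons, whichever transcripts were expressed, so comparisons of levels between genes are approximate. These cells are an established human line of basal-like breast adenocarcinoma. The 3 control libraries came from cells at 0 Gy and the 3 irradiated libraries from cells 24 h after 10 Gy from a 137Cs gamma source. All 6 libraries carry the names SCR and genotype WT, which in the study is a line with a non-targeting shRNA (shSCR). Knockdown of MAFF was not analysed here. The labels do not say whether replicates were separate cultures, so p-values measure only the spread between these libraries.

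Small MAF proteins are basic leucine zipper (bZIP) factors that bind DNA but hold no transactivation domain of their own. They pair with CNC proteins, which activate genes through antioxidant response elements, or with BACH1, a heme-regulated repressor that occupies the same sites. KEAP1 is the adaptor through which a CUL3 ubiquitin ligase marks NRF2 for degradation, and NRF1 is best known for keeping up proteasome genes. Much of this network is set at the protein level, which RNA does not show.

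Whole reads, recovered from FPKM, gene length and the depth each library implied, lay between 15643641 and 28861781 per library, and no member had fewer than 669 reads in any library. Line markers were expressed, with VIM at 301 FPKM and EGFR at 29.8 FPKM at 0 Gy, and their sum of 665 to 671 FPKM at 0 Gy was 528 to 542 FPKM at 10 Gy, with VIM (-0.26), CD44 (-0.11) and AXL (-0.49) called lower on the log2 scale. Of 5 luminal genes, ESR1, FOXA1 and CDH1 stayed below 0.5 FPKM, PGR was listed at 0 in every library, and GATA3 stood at 3.05 FPKM at 0 Gy and 2.93 FPKM at 10 Gy. Of 7 markers of blood, endothelial and stromal cells, CD3E was listed at 0 in every library, and PTPRC, VWF and COL1A2 stayed below 0.04 FPKM. PECAM1 and COL1A1 were higher after 10 Gy, and the sum of all 7 lay between 4.22 and 4.34 FPKM at 0 Gy and between 6.04 and 6.26 FPKM at 10 Gy. Of 4 proliferation genes, CCNB1, TOP2A and CDK1 were called higher and MKI67 was not, and the part of these shifts in the results below was not tested. In bulk RNA a smaller share of some cells and less RNA per cell cannot be told apart.

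Promoter stretches of MAFG and MAFF, the 2 most abundant small MAF genes, are shown with sites of MAFF and BACH1 that matched a searched motif. Promoter windows from 250 bases before to 50 bases after each RefSeq start (GRCh38.p14) were found for 6 members, 12 windows in all, and not for MAFK. Each was searched on both strands for the antioxidant response element core TGACNNNGC, the small MAF recognition core TGCTGA, the hypoxia response element core ACGTG, the AP-1 site TGANTCA and the cAMP response element (CRE) TGACGTCA. MAFG is drawn from chr17:81927736-81927985 on the minus strand, the 250 bases before its start. This stretch also holds the first 157 bases of the divergent long noncoding gene MAFG-DT. MAFF is drawn from chr22:38201744-38201881 on the plus strand, up to the first annotated 5′ UTR. The CRE of MAFF lies 54 bases before the RefSeq start and inside 3 annotated 5′ UTR segments of MAFF with different coordinates. It is shown with its flanks from chr22:38201929-38201958. The AP-1 site of BACH1 is shown with its flanks from chr21:29298863-29298892 on the plus strand. Capitals mark the matches.
MAFG: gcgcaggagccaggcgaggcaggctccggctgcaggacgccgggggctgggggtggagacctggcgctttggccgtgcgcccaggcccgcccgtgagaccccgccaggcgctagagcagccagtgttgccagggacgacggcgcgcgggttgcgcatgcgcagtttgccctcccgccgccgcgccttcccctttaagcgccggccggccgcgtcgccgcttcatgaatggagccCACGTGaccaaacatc
MAFF: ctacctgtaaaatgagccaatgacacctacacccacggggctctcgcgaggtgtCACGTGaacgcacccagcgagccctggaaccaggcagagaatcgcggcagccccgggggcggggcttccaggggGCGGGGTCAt
MAFF CRE: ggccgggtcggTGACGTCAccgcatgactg
BACH1 AP-1: cgcggaaggagTGAGTCAcctgaccgctgc
The ACGTG core stood in 3 of the 12 windows, both of MAFF and the one of MAFG, each time on both strands as CACGTG. It stood in 21.4% of all 35116 promoters in the table. The antioxidant response element core stood in 2 windows, of MAFF (GCGGGGTCA on the given strand) and of KEAP1 (TGACACGGC and GCTTAGTCA), against 13.3% of all promoters. The CRE stood in 1 window, of MAFF, against 1.85%, and the AP-1 site in 1, of BACH1, against 7.71%. The TGCTGA core stood in 2, of NFE2L1 and BACH1, against 17.3%. TGANTCA, TGACGTCA and TGACNNNGC share letters, and no match of one overlapped a match of another in these windows. Neither window of NFE2L2 held any of the 5 motifs. A match describes the letters alone, and binding was not measured.

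At 0 Gy the members spanned 16.9-fold in level, in the order NFE2L1, KEAP1, MAFG, MAFF, NFE2L2, MAFK and BACH1. The order was the same at 10 Gy. Every neighbouring pair in it was apart, with the lowest library of the higher gene above the highest library of the lower gene, at both doses. The closest pair was MAFF over NFE2L2, with mean FPKM 1.17 times as high at 0 Gy and 1.15 times as high at 10 Gy. NFE2L1, at 98.3 ± 4.33 FPKM (SD, n = 3), stood at or above 96.8% of the 12128 tested genes, and BACH1, at 5.81 ± 0.298 FPKM, stood at or above 43.8%. In FPKM, NFE2L1 was thus 6.89 ± 0.435 times as high as NFE2L2 at 0 Gy. This order and these ratios depend on the annotated exon lengths that FPKM divides by.

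**Figure D1:**
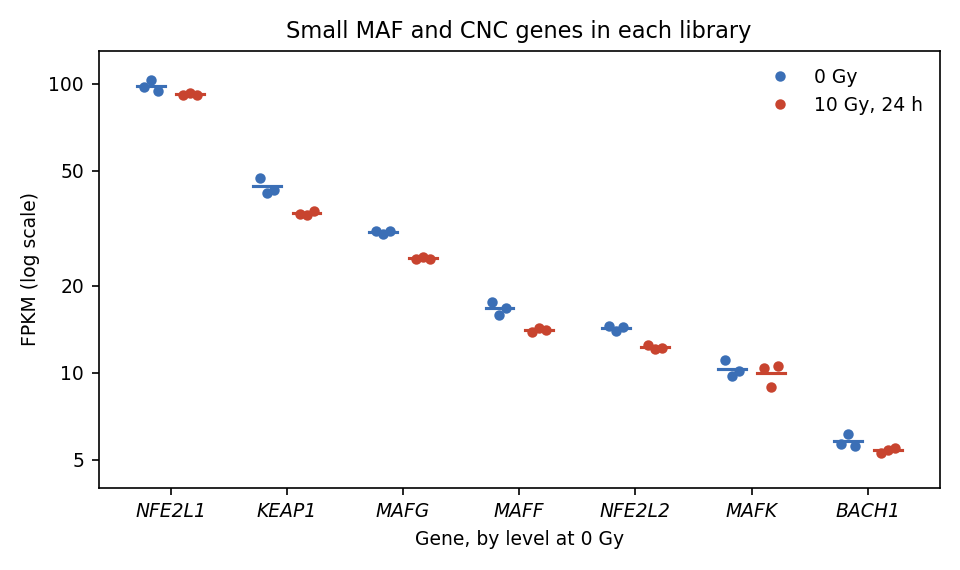
Level of each member in each library, in FPKM on a log axis, with genes in order of their level at 0 Gy. Points are libraries (blue 0 Gy, red 24 h after 10 Gy) and lines are means of 3 libraries. NFE2L1 lies near 98.3 FPKM and BACH1 near 5.81 FPKM at 0 Gy, and only MAFK has red points among its blue ones.

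After 10 Gy, KEAP1, MAFG, MAFF and NFE2L2 fell by 14.2% to 19.3%, and BACH1, NFE2L1 and MAFK did not pass the test. These were 4 of 7 members called lower and none called higher, beside 23.7% of all tested genes called lower, 11.9% called higher and 35.6% called in either direction. Among the 6420 tested genes within the members' range of levels, 35.4% were called lower. In 6 of 7 members every irradiated library lay below every control library, as in 32.8% of the tested genes. The median log2 change was -0.21 over the members and -0.04 over all tested genes. Changes are on the scale of log2(FPKM + 1), tested with limma and Benjamini-Hochberg adjustment over all tested genes. A gene was called at an adjusted p under 0.05.

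MAFG, the most abundant small MAF gene, lies at chr17:81918270-81927714 on the minus strand of GRCh38. It stood at 30.9, 30.3 and 31.1 FPKM in the control libraries and at 24.7, 25.1 and 24.8 FPKM in the irradiated ones. The libraries of each dose lay within 1.02-fold of each other and the doses were far apart. MAFG fell by 19.2%, a log2 change of -0.30 (SE 0.028, adjusted p = 0.00071).

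MAFF, the stress-inducible small MAF gene, lies at chr22:38200767-38216511 on the plus strand. It stood at 17.6, 15.8 and 16.8 FPKM at 0 Gy and at 13.9, 14.3 and 14.1 FPKM at 10 Gy. The control libraries were the more scattered, and the lowest of them was still above all irradiated ones. MAFF fell by 15.7%, a log2 change of -0.23 (SE 0.042, 95% interval -0.33 to -0.13, adjusted p = 0.0067).

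MAFK lies at chr7:1530714-1543043 on the plus strand. It stood at 11.1, 9.76 and 10.2 FPKM at 0 Gy and at 10.4, 8.93 and 10.5 FPKM at 10 Gy, and the groups overlapped. The irradiated library of replicate 2 was the lowest of all 6. Its log2 change was -0.05 (SE 0.070, 95% interval -0.22 to 0.11, adjusted p = 0.58), and it turned to 0.01 without that library.

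The 3 small MAF genes summed to 57.8 ± 1.87 FPKM at 0 Gy and 48.9 ± 0.525 FPKM at 10 Gy (SD, n = 3), with no overlap between libraries. MAFG supplied the largest share in every library, 53.2 ± 1.19% at 0 Gy and 50.9 ± 0.920% at 10 Gy. MAFF supplied 28.9 ± 0.584% and 28.8 ± 0.698%, and MAFK 17.9 ± 0.653% and 20.3 ± 1.60%. The shares of all 3 genes overlapped between doses.

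**Figure D2:**
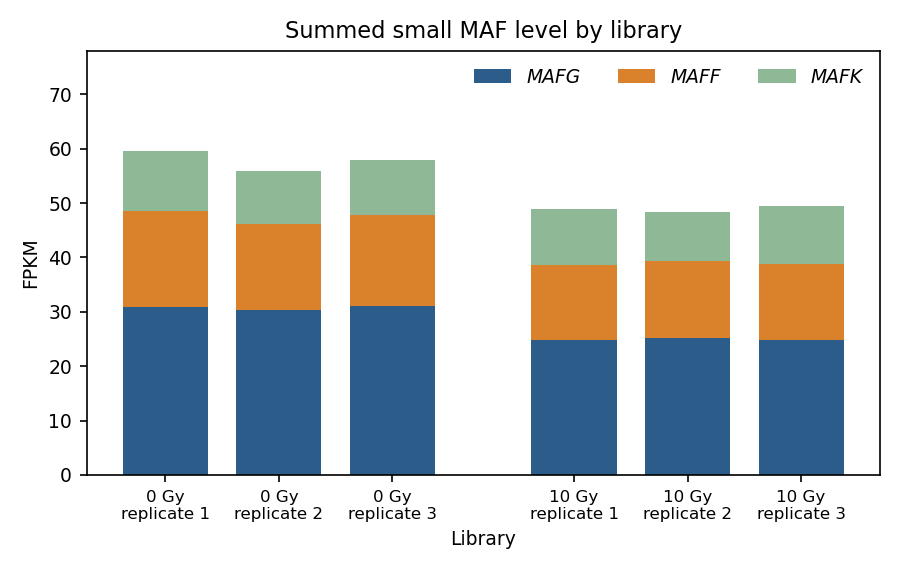
Summed level of the small MAF genes, in FPKM, in each of the 6 libraries, with a bar for each library split into MAFG, MAFF and MAFK from the bottom. The bars lie between 55.9 and 59.6 FPKM at 0 Gy and between 48.3 and 49.4 FPKM at 10 Gy.

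Of the CNC activators, NFE2L2 (NRF2, chr2:177227595-177392697, minus strand) stood at 14.5, 13.9 and 14.4 FPKM at 0 Gy and at 12.5, 12.0 and 12.2 FPKM at 10 Gy. The groups did not overlap. NFE2L2 fell by 14.2%, a log2 change of -0.21 (SE 0.032, adjusted p = 0.0037).

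NFE2L1 (NRF1, chr17:48048329-48061487, plus strand) stood at 97.6, 102.9 and 94.3 FPKM at 0 Gy and at 91.0, 92.9 and 91.7 FPKM at 10 Gy. The irradiated libraries lay just below the lowest control library. Its log2 change was -0.10 (SE 0.038, 95% interval -0.18 to -0.01), and the adjusted p of 0.091 did not pass.

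BACH1 (chr21:29194071-29630751, plus strand) was the least abundant member, at 5.69, 6.15 and 5.59 FPKM at 0 Gy and 5.30, 5.40 and 5.48 FPKM at 10 Gy. All irradiated libraries lay below all controls by a small margin. Its log2 change of -0.09 (SE 0.045, 95% interval -0.20 to 0.02) had an adjusted p of 0.16.

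KEAP1 (chr19:10486120-10503741, minus strand) stood at 47.3, 42.0 and 43.0 FPKM at 0 Gy and at 35.3, 35.1 and 36.3 FPKM at 10 Gy. The first control library was the highest, and no irradiated library reached any control. KEAP1 fell by 19.3%, a log2 change of -0.30 (SE 0.047, adjusted p = 0.0037). Of all tested genes, 7.02% had a change at or below that of KEAP1, 7.31% at or below that of MAFG, 13.6% that of MAFF and 17.0% that of NFE2L2.

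**Figure D3:**
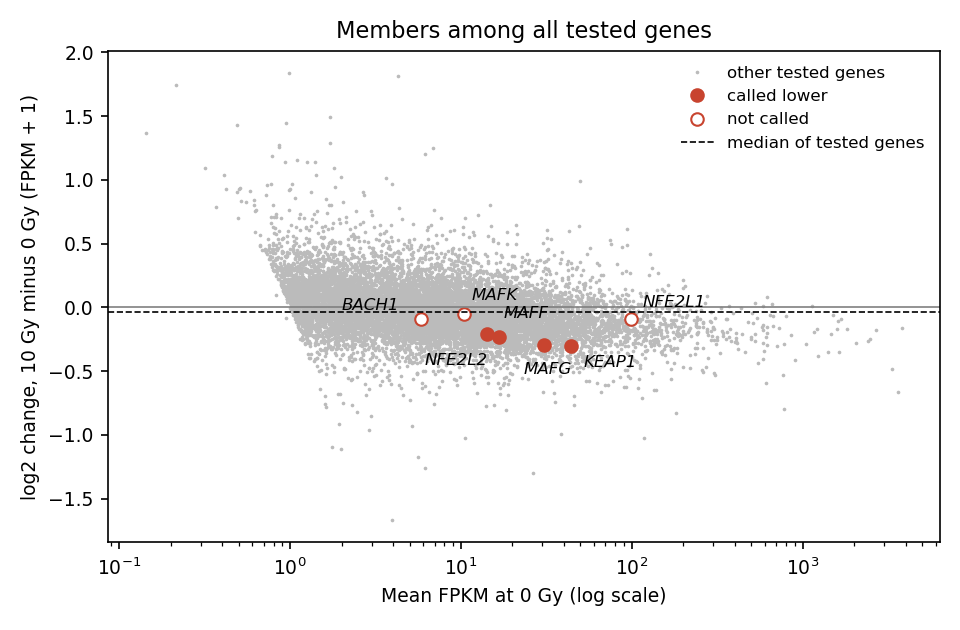
Log2 change after 10 Gy (10 Gy minus 0 Gy, FPKM + 1) against mean FPKM at 0 Gy on a log axis, for the 12128 tested genes. Grey points are other genes, filled red points the 4 members called lower, open red points the 3 not called, and the dashed line the median of -0.04. The members lie inside the cloud, with KEAP1 and MAFG at -0.30 as the lowest of them.

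KEAP1 and NFE2L2, the inhibitor and the activator, both fell. Their ratio was 3.09 ± 0.157 at 0 Gy and 2.91 ± 0.0702 at 10 Gy (SD, n = 3), with the closest libraries of the doses at 2.983 and 2.975. The ratio of summed BACH1, NFE2L1 and NFE2L2 to summed small MAF RNA was 2.05 ± 0.131 at 0 Gy and 2.24 ± 0.0377 at 10 Gy. MAFG over NFE2L2 was 2.16 ± 0.0179 and 2.03 ± 0.0497. These 3 ratios did not overlap between doses, while NFE2L2 over BACH1, NFE2L1 over NFE2L2 and MAFF over MAFG did. No test was run on ratios.

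The size of these changes depends on what each library is scaled to. The depth behind the deposited FPKM was 0.973 to 0.991 times the reads in the table at 0 Gy and 1.03 to 1.04 times at 10 Gy. The FPKM of all genes summed to between 269611 and 278380 at 0 Gy and between 246920 and 254918 at 10 Gy. Rescaling to TPM, in which every library sums to the same total, moved the median of all genes from -0.04 to 0.08. Of the called genes, 33.4% were higher as deposited, 58.1% when scaled to the reads in the table and 74.5% as TPM. MAFG and KEAP1 stayed called lower as TPM, with log2 changes of -0.18 and -0.18 (adjusted p = 0.0063 and 0.012). MAFF at -0.12 (adjusted p = 0.070) and NFE2L2 at -0.09 (adjusted p = 0.093) did not pass. MAFK, BACH1 and NFE2L1 turned to 0.07, 0.02 and 0.03. Rescaling multiplies all genes of a library by a common factor, so changes relative to the median of all genes could hardly move. They are therefore not a separate check of the falls. MAFF stood at -0.19 below that median both as deposited and as TPM, MAFG at -0.26 and -0.25, KEAP1 at -0.26 and -0.26, and NFE2L2 at -0.17 and -0.17.

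**Figure D4:**
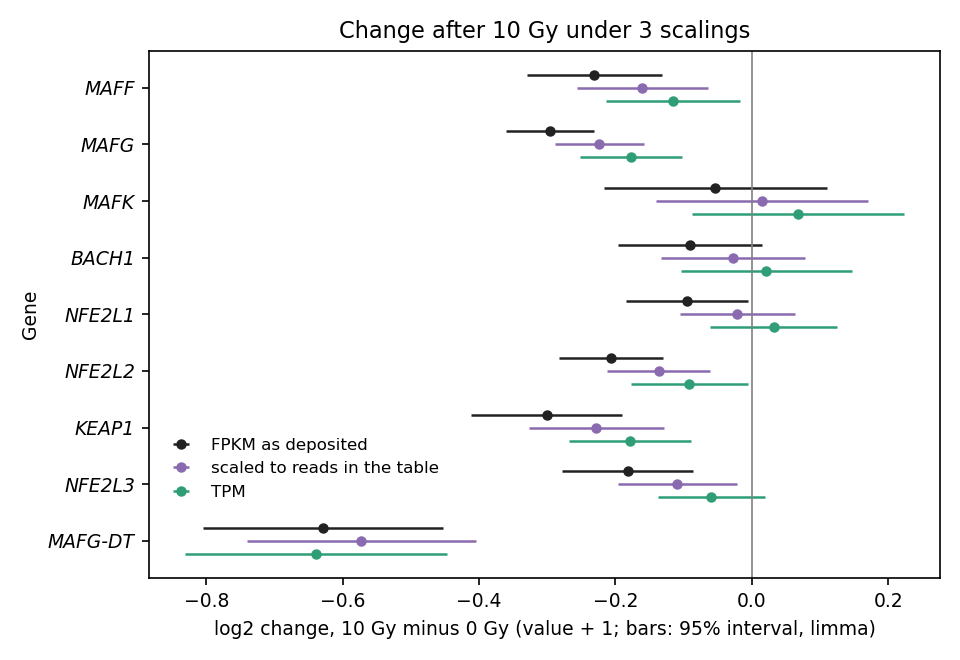
Log2 change after 10 Gy (10 Gy minus 0 Gy, value + 1) of the 7 members, NFE2L3 and MAFG-DT, with 95% intervals from limma. Colours give FPKM as deposited (black), FPKM scaled to the reads in the table (violet) and TPM (green). MAFF moves from -0.23 to -0.12 between the first and the last scaling. MAFG, KEAP1, MAFF, NFE2L2 and MAFG-DT stay below 0 with their whole intervals under each scaling. As TPM, the adjusted p of MAFF and of NFE2L2 nevertheless did not pass.

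Most other genes of the family were low in this line. NFE2, BACH2, MAF, MAFA and NRL had a mean under 0.6 FPKM at both doses and were not tested. NFE2L3 (NRF3) stood near MAFG in level, at 31.1, 28.5 and 29.8 FPKM at 0 Gy, and stood at 25.7, 25.7 and 27.1 FPKM at 10 Gy. It was called lower, with a log2 change of -0.18 (SE 0.041, adjusted p = 0.014). That call was lost as TPM (-0.06, adjusted p = 0.21), when scaled to the reads in the table (-0.11, adjusted p = 0.059), and without irradiated replicate 1 or 2 (adjusted p = 0.056 for each).

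Of 48 genes that the table assigns to the bZIP family, among them all members but KEAP1, 35 were tested. Of these 12 were called lower (34.3%) and 1 higher, with a median log2 change of -0.11. This share lay near the 35.4% of tested genes in the members' range of levels, and 23.7% of all tested genes were called lower. Besides the members, FOSL1 at 271 FPKM, ATF4 at 156 FPKM and JUN at 56.0 FPKM led the family at 0 Gy among those called lower. The 1 called higher was CREB3L1, an endoplasmic reticulum bound factor, at 0.33. Over all 833 tested transcription factors of the table, 130 were called lower and 108 higher, with a median of 0.01. These counts were made after the values were seen, and the leading family members were chosen by level.

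The genomic surroundings of the members held 31 other genes of the table within 5000 bases, of which 7 were tested. MAFG-DT (chr17:81927829-81930753, plus strand) lay 115 bases from MAFG on the opposite strand, with its first 157 bases within the sequence printed for MAFG. It stood at 4.85, 4.601 and 3.97 FPKM at 0 Gy and at 2.36, 2.49 and 2.75 FPKM at 10 Gy. No irradiated library came near a control. Its log2 change was -0.63 (SE 0.075, adjusted p = 0.0015), and it was called lower in all 17 alternatives that tested it. The difference from the change of MAFG was not tested. PYCR1, an enzyme of proline synthesis on the far side of MAFG-DT, was also called lower (-0.32, adjusted p = 0.0023). SIRT7, whose gene overlaps MAFG by 3054 bases on the same strand, was not called (0.06), nor was the antisense gene AC145207.8 inside MAFG (-0.08). Near NFE2L2, HNRNPA3 was called lower (-0.26, adjusted p = 0.0013), as was AGPS (-0.12, adjusted p = 0.023), and TMEM184B beside MAFF was not (0.07). AGPS stayed called in only 11 of 19 alternatives. Its call was lost as TPM (-0.0016, adjusted p = 0.98) and when scaled to the reads in the table (-0.051, adjusted p = 0.28). Centring on the median of the tested genes (adjusted p = 0.064) and the replicate block (adjusted p = 0.068) lost it too. So did leaving out control replicate 3 or any 1 irradiated replicate (adjusted p = 0.063 to 0.082). How overlapping genes and strands were counted is not given in the sources used here, so reads of overlapping pairs cannot be told apart. PLA2G6, TMEM184A, BACH1-IT1, AC019080.5, DNAJC19P5 and AC011461.1 had means from 0.655 to 0.964 FPKM and the other 18 neighbours at most 0.302 FPKM.

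Regulators that act on the members at the protein level were called in shares near those of all genes. Of 21 tested, 4 were called lower (19.0%, beside 23.7% of all tested genes), 3 higher (14.3%, beside 11.9%) and 14 neither, and the median log2 change was -0.03. SQSTM1 (p62), which sequesters KEAP1 and is itself an NRF2 target, moved furthest. It stood at 117, 110 and 108 FPKM at 0 Gy and at 77.7, 80.7 and 81.4 FPKM at 10 Gy, a log2 change of -0.48 (SE 0.040, adjusted p = 0.00059). RBX1, the RING subunit of the KEAP1 ligase, fell by 0.26 on the log2 scale (adjusted p = 0.012), and PGAM5, a mitochondrial phosphatase bound by KEAP1, fell by 0.24 (adjusted p = 0.0025). NGLY1, the deglycosylase that NRF1 needs for its activation, was the remaining gene called lower, at -0.17 (adjusted p = 0.037). As TPM only SQSTM1 and PGAM5 stayed called lower in this list, with RBX1 at -0.14 (adjusted p = 0.074). Of the NRF1 degradation machinery at the endoplasmic reticulum, SEL1L and SYVN1 (HRD1) were each higher by 0.19 (adjusted p = 0.0067 and 0.0034). VCP, of the same machinery, was not called (-0.04, adjusted p = 0.34). FBXW11, a β-TrCP protein that targets NRF2, was higher by 0.15 (adjusted p = 0.0092). The other β-TrCP gene, BTRC, was not called (0.06, adjusted p = 0.36). CUL3, the scaffold of the KEAP1 ligase, was at 7.49 ± 0.337 and 7.29 ± 0.0726 FPKM and its groups overlapped.

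Far more of the known target genes of the members were called lower than higher. Of 34 NRF2 targets 30 were tested, and 21 were called lower and 1 higher, with a median log2 change of -0.23. The share called lower was 70.0%, beside 23.7% of all tested genes and 35.4% of those in the members' range of levels. The largest falls were those of SLC7A11, FTL and TXNRD1. SLC7A11, the cystine transporter subunit, stood at 17.4, 19.6 and 19.3 FPKM at 0 Gy and at 10.6, 11.4 and 11.8 FPKM at 10 Gy. Its log2 change was -0.69 (SE 0.057, adjusted p = 0.00059), and the doses lay far apart. TXNRD1, thioredoxin reductase, changed by -0.56 (SE 0.038, adjusted p = 0.00044). FTL, the ferritin light chain, changed by -0.66 (SE 0.069, adjusted p = 0.00098), with the limit that reads could be split with its processed pseudogenes. That call was lost when all genes above 0 FPKM were tested (adjusted p = 0.083). ABCC3, a drug efflux transporter, was the 1 called higher, at 5.34 ± 0.252 FPKM at 0 Gy and 6.74 ± 0.513 FPKM at 10 Gy (log2 change 0.29, adjusted p = 0.0099). NQO1 and HMOX1, named here after their values were seen as the usual reporters of NRF2 and BACH1, were both called lower, at -0.51 (adjusted p = 0.00062) and -0.38 (adjusted p = 0.0035).

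Read by what they do, a grouping made after the values were seen, the NRF2 targets called lower fell into several groups. All tested genes of glutathione supply, SLC7A11, GCLM, GCLC and GSR, were called lower. GCLM, the modifier subunit of the enzyme that limits glutathione synthesis, went from 32.6 ± 0.642 to 23.4 ± 0.714 FPKM (SD, n = 3). GCLC, its catalytic subunit, went from 5.64 ± 0.192 to 4.90 ± 0.223 FPKM. The thioredoxin group TXN, TXNRD1, SRXN1 and PRDX1 was also called lower throughout, with TXN at 550 ± 22.6 FPKM at 0 Gy and 407 ± 9.41 FPKM at 10 Gy. Of the genes that supply NADPH, PGD, TKT, TALDO1 and ME1 were called lower. Both ferritin chains and the heme genes HMOX1 and SLC48A1 were called lower, and the biliverdin reductase BLVRB was not (-0.17, adjusted p = 0.0501). FTH1, the ferritin heavy chain, stood at 459 ± 21.4 and 359 ± 15.2 FPKM and has processed pseudogenes too. The aldo-keto reductases AKR1C1 and AKR1C3 and the transporter ABCC1 were not called, and AKR1B10, AKR1C2, ABCC2 and GPX2 were too low to test.

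Of 10 BACH1 targets 9 were tested, and all 9 were called lower, with a median of -0.46. Beside them, 23.7% of all tested genes and 35.4% of those in the members' range of levels were called lower. All 9 are also in the NRF2 list, so the counts are not separate. The remaining BACH1 target, the iron exporter SLC40A1, stood at 0.476, 0.541 and 0.416 FPKM at 0 Gy and 0.703, 0.683 and 0.565 FPKM at 10 Gy and was too low to test. Of 31 proteasome genes, the targets of NRF1, 30 were tested, with 21 called lower, none higher and a median of -0.15. Their share called lower was 70.0%, beside the same 23.7% and 35.4%. PSMC3, PSMC5 (base ATPases) and PSMB6 (a catalytic core subunit) fell furthest, by 0.27, 0.23 and 0.25 on the log2 scale. PSMC3 stayed called in all 19 alternatives, PSMC5 in 18, all but TPM (adjusted p = 0.059), and PSMB6 in 15. PSMB6 was not called as TPM (adjusted p = 0.081) or with any mean above 0 FPKM (adjusted p = 0.060). Nor was it called without irradiated replicate 1 or 2 (adjusted p = 0.051 and 0.052). The proteasome count was 1 as TPM, 10 when scaled to the reads in the table, and 9 and 11 without irradiated replicates 1 and 2. The NRF2 count lay between 14 and 25 and the BACH1 count between 7 and 9 over all alternatives.

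**Figure D5:**
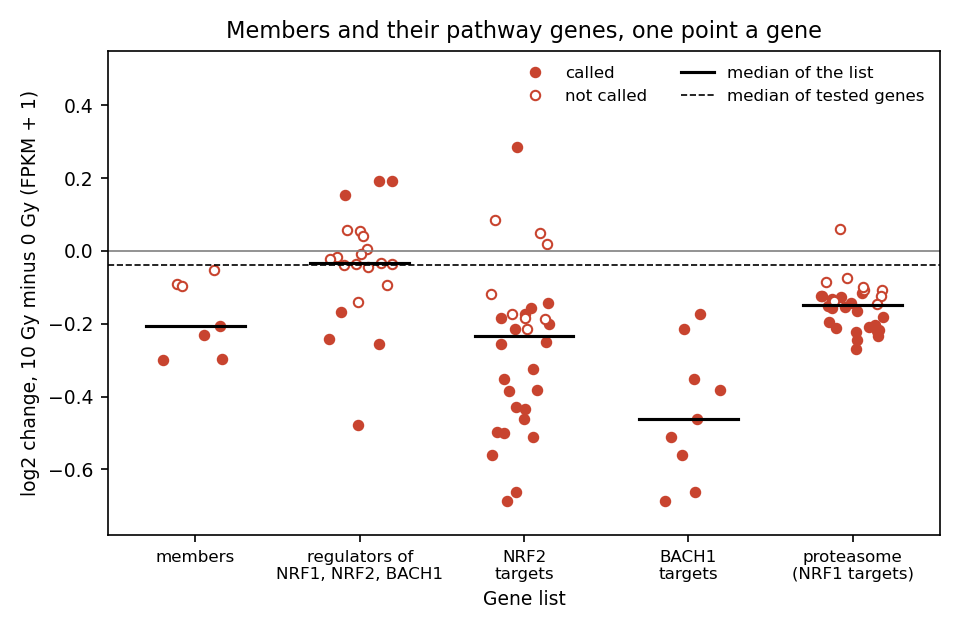
Log2 change after 10 Gy (10 Gy minus 0 Gy, FPKM + 1) of each tested gene in 5 lists, with 1 point for each gene. Filled points were called and open points were not, bars are list medians, and the dashed line is the median of all tested genes (-0.04). The BACH1 targets have the lowest median, -0.46, and the regulators lie on both sides of 0.

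Across the 6 libraries, the members fell into pairs of high and low correlation. Pearson's r of log2(FPKM + 1) lay between 0.95 and 0.98 for the 6 pairs of MAFF, MAFG, NFE2L2 and KEAP1 and between -0.01 and 0.51 for MAFK with any other member. It was also 0.97 for BACH1 with NFE2L1, neither of which was called. These are descriptions over 6 points in 2 groups, where any gene that differs between doses scores high. For MAFF the closest protein-coding genes were MCUB, GMEB2 and SERPINE2 (r = 1.00 for each to 2 decimals), but 1767 genes had r above 0.9 with it. For MAFG they were DVL2, RPP40 and MSANTD3, for NFE2L2 they included MCL1 and FARSB, and for KEAP1 GLRX3, RNASEH2C and EIF2S2. NFE2L1 was closest to LIN54, CHTF8 and RAD54B, and BACH1 to MOB3A, RAD54B and CYFIP1. Only 46 genes passed 0.9 with MAFK, led by NCS1, PCDHB14 and ZNF586 at 0.97.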

How the data were processed

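RNA was extracted from MDA-MB-231 cells 24 h after 0 or 10 Gy, and polyA libraries were made and sequenced by a provider. The authors deposited one table of FPKM values, per the labels made with HISAT2 on GRCh38. The counting program, its strand setting and the versions are not given in the sources used here. Gene coordinates and lengths of the 7 members were those of GENCODE 29, the lengths being the union of exons. All columns of values belong to the 6 libraries (0 others). Multiplying FPKM by gene length and by the depth each library implied gave whole reads for 100% of values above 0, within 0.01 of a read. These reads were used for depth, for scaling and in limma-voom, which called 5161 genes.

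Libraries were grouped by treatment and compared with limma 3.58.1 (R 4.3.3) on log2(FPKM + 1), using its eBayes step with the trend option. The 12128 genes whose mean reached 1 FPKM were tested. Such a change understates that of low genes. The procedure was tested on simulated data first. Named were the members, relatives, neighbours within 5000 bases (those under 0.5 FPKM by count), up to 3 called genes each way per list, and the 3 genes most like each member. A few genes that this rule or the lists hold are not reported here. The members and lists were chosen with earlier results of these data known. Deviations of same-numbered libraries correlated between -0.10 and -0.03, and those of other pairs between -0.05 and 0.09. With 3 libraries a dose, this cannot settle whether replicate numbers pair the libraries. Alternatives covered scaling, pseudocount, filters, eBayes settings, voom, a replicate block and each library left out. Python 3.11.15, pandas 2.3.3 and matplotlib 3.10.9 were used, and promoters are RefSeq's.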

Additional observations from a re-analysis of the deposited data

How the results depend on the processing

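Of 19 alternatives, MAFG and KEAP1 were called lower in all 19 and MAFF and NFE2L2 in 18, all but TPM. Scaling to the reads in the table and centring on the median of the tested genes were added after seeing the data, and so was applying the alternatives to the lists and named genes. As TPM, 2 members were called, and MAFF (-0.12) and NFE2L2 (-0.091) no longer passed, while MAFK (0.068), BACH1 (0.021) and NFE2L1 (0.032) changed sign. TPM gave 3113 genes higher and 1066 lower, the regulators 5 higher and 2 lower, the NRF2 targets 2 higher, the proteasome genes 1 lower and the relatives 0 lower. Scaling to the reads in the table gave 2294 higher and 1651 lower, 10 proteasome genes and 0 relatives lower, 2 NRF2 targets higher, and MAFK at 0.015. With any mean above 0 FPKM, 1815 genes and 11 proteasome genes were called lower and 1 relative higher. A minimum of 5 FPKM left 874 genes higher. With voom, NFE2L1 (-0.10) passed at an adjusted p of 0.045.

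Leaving out each library in turn gave 2660 to 3993 calls, 852 to 1393 higher and 1808 to 2630 lower, with the lowest counts without irradiated replicate 1 or 2. It gave 0 to 1 relatives and 9 to 22 proteasome genes lower, and MAFK between -0.093 and 0.015. KEAP1, MAFG, MAFF and NFE2L2 stayed called in each. The replicate block called 3503 genes and 4 members, and whether its numbers pair the libraries is not known. With 3 libraries a dose, changes of the size seen for BACH1 and MAFK can go uncalled.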
